A study of Mus musculus with 4 samples.

Results

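The control transcriptome of cultured primary liver sinusoidal endothelial cells (LSEC) was described from the 2 samples labelled NC, out of 4 samples in the series. NC is a negative-control siRNA, a short RNA duplex delivered to the cells without a matched target. The LSEC came from livers of 8-week-old Balb/c mice. They were freed by collagenase perfusion, recovered from a Nycodenz density gradient, and taken with magnetic beads against CD146, the product of *Mcam*. They were then plated on collagen for 24 h and kept with the siRNA for 48 h, so that RNA was taken on day 3 of culture. Both samples carried this same treatment, and no untreated or freshly isolated LSEC was analysed here. Levels therefore describe bead-selected cells after culture and transfection. The labels call NC 1 and NC 2 biological replicates, and the sources used here do not say whether they came from separate mice or preparations.

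LSEC line the capillaries of the liver, where blood passes through open pores (fenestrae) between the vessel and the hepatocytes. They are known for their scavenger receptors, which take up waste macromolecules from blood and pass them to lysosomes. They also signal to neighbouring cells: nitric oxide made by eNOS, the product of *Nos3*, acts on soluble guanylate cyclase (sGC), and secreted growth factors act on stellate cells and hepatocytes. Capillarization is the name for the shift of LSEC towards ordinary capillary endothelium, with closed pores and more matrix beneath the cell, and is seen in diseased livers and in culture. The question of the study was how the long non-coding RNA *Airn* acts in these cells, and the NC samples are the reference state for it.

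The table held 18373 genes. Levels are given as FPKM, fragments per kilobase of transcript per 1000000 reads, which corrects for transcript length and allows genes to be compared within a sample. The estimated counts summed to 17308382 in NC 1 and 18371959 in NC 2. A mean FPKM of at least 1 was reached by 11582 genes (63.0% of those listed), and this share is the background for every gene list counted here at that level. Of all genes, 6780 (36.9%) reached 10 FPKM, 941 (5.12%) reached 100 FPKM and 87 reached 1000 FPKM, and these shares are the background for the counts at 10 and 100 FPKM. The median gene of the table stood at 4.11 FPKM, and 1129 genes were listed at 0 in both samples. *Mup15*, *Gm10778* and *Nek8* lay on the limit of 1 FPKM, which counts as reaching it, and *Mzb1*, *Pcdhb5* and *Gpr155* just below it.

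The 2 NC samples were close to each other. The log2(FPKM + 1) values of NC 1 and NC 2 had a Pearson r of 0.997 and a Spearman rho of 0.986 across the genes of the table, and genes are no independent replicates. The median gene at 1 FPKM or more differed between the samples by 0.10 on the log2 scale. This difference was 0.15 for the 4802 genes from 1 to 10 FPKM, 0.085 for the 5839 genes from 10 to 100 FPKM and 0.084 for the 941 genes at 100 FPKM or more. Only 85 genes (0.734% of the 11582) lay over 2-fold apart, 39 of them higher in NC 1 and 46 higher in NC 2. With 2 samples, both values are given for a named gene in the order NC 1, NC 2, and a difference between genes smaller than the gap between those values is not read as an order.

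**Figure D1:**
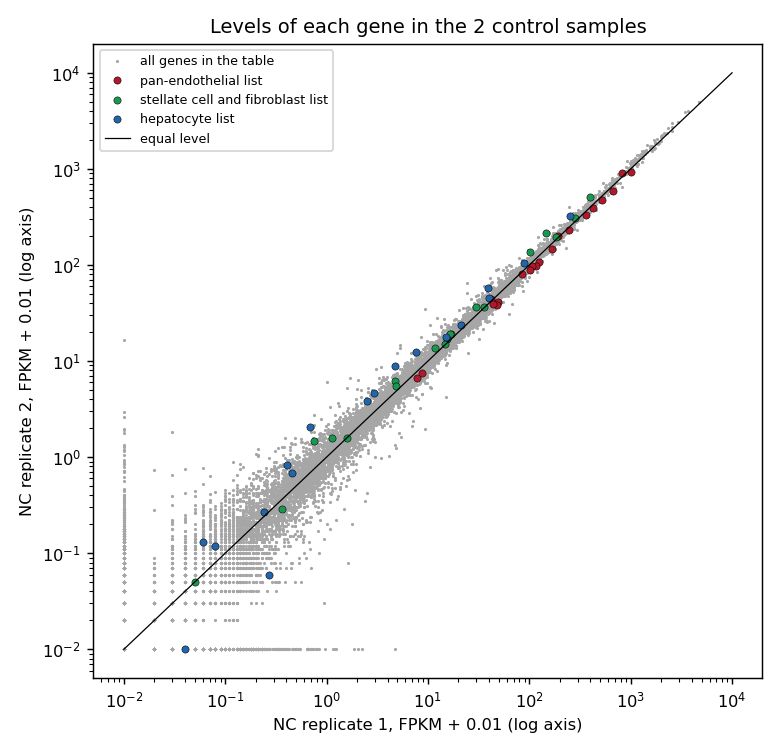
FPKM of each gene in NC replicate 1 (x axis) against NC replicate 2 (y axis), both with 0.01 added and on log axes; grey points are all 18373 genes, coloured points are 3 marker lists, and the line marks equal levels. Points follow the line closely at high levels and spread below 1 FPKM, while 17 of 20 pan-endothelial genes lie slightly under the line and hepatocyte genes at 1 FPKM or more lie above it.

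The defining markers of endothelium and of LSEC were high in both samples. *Pecam1*, the junction protein CD31, was at 520.3 and 474 FPKM (mean 497 ± 32.5, SD, n = 2). *Cdh5*, which encodes VE-cadherin, the adhesion protein of endothelial junctions, was at 671 and 591 FPKM (mean 631 ± 56.6, SD, n = 2). *Stab2*, the scavenger receptor for hyaluronan, was at 83.7 and 74.8 FPKM (mean 79.2 ± 6.32, SD, n = 2). *Lyve1*, a hyaluronan receptor of LSEC and lymphatic endothelium, was at 89.0 and 88.3 FPKM (mean 88.7 ± 0.495, SD, n = 2). By mean FPKM, *Stab2* lay at percentile 93.4 of the table and the other 3 markers higher, with both junction genes above both LSEC receptors in each sample.

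All 20 genes of the pan-endothelial list reached 1 FPKM, 18 reached 10 FPKM and 12 reached 100 FPKM (beside 36.9% and 5.12% of all genes), with a median of 111 FPKM beside 4.11 FPKM for all genes. The highest was *Egfl7*, a secreted endothelial protein, at 1017 and 920.3 FPKM, followed by *Eng*, the TGF-beta co-receptor endoglin, at 819.9 and 898 FPKM. *Emcn* (endomucin) was at 422 and 393 FPKM and *Robo4*, a guidance receptor of endothelium, at 365 and 331 FPKM. *Egfl7* was above *Eng* in both samples, but the gap in NC 2 was smaller than that between the samples. *Mcam*, whose product was used to capture the cells, was at 48.4 and 38.7 FPKM and is no independent sign of their identity. The list's lowest members were *Flt1*, a VEGF receptor, at 7.79 and 6.71 FPKM and *Nos3* at 8.77 and 7.54 FPKM.

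Of the 19 LSEC genes matched, 18 reached 1 FPKM, with a median of 46.8 FPKM, below the pan-endothelial median. *Fcgr2b*, the inhibitory Fc receptor that clears immune complexes, was at 354 and 395 FPKM, and *Oit3* at 332 and 342 FPKM. These led the list, and *Oit3* stood 3.503-fold and 3.75-fold above *Flt4*, the VEGF-C receptor, at 94.8 and 91.4 FPKM. *Ehd3*, at 93.8 and 84.9 FPKM, did not differ from *Flt4* beyond the gap between the samples. *Stab1* was at 82.6 and 81.3 FPKM, *Bmp2* at 77.3 and 76.3 FPKM and *Gata4* at 76.5 and 74.9 FPKM. *Gata4* encodes a transcription factor that specifies sinusoidal endothelium, and *Bmp2* a ligand by which LSEC regulate hepatocyte hepcidin. *Mrc1*, the mannose receptor, was at 27.4 and 29.4 FPKM, and *Dnase1l3*, a secreted nuclease, at 11.9 and 12.9 FPKM. Only *Cd209b*, the lectin SIGN-R1, was near 0, with 0 and 2 counts, or 0.0561 CPM (counts per 1000000 counts of the sample) over both samples (95% exact Poisson interval 0.00679 to 0.202, which covers counting error only).

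Genes known from both zones of the sinusoid were found, but bulk RNA does not show which cells they came from. Of the pericentral genes, *Fabp4*, a fatty acid carrier, was the highest at 379 and 374 FPKM, and *Thbd* (thrombomodulin) and *Kit* were at 85.0 and 87.8 FPKM and at 39.2 and 41.4 FPKM. *Wnt2* was at 9.51 and 11.1 FPKM and *Rspo3* at 10.1 and 8.82 FPKM; both encode pericentral signals to hepatocytes. *Wnt9b*, the other Wnt ligand of central vein endothelium, gave 0 and 1 counts. Among periportal genes, *Msr1* was at 34.2 and 45.7 FPKM, *Ntn4* at 24.4 and 25.1 FPKM, and the arterial genes *Dll4* and *Efnb2* at 16.3 and 13.3 FPKM and at 10.3 and 8.79 FPKM. The median was 10.3 FPKM for the 7 pericentral genes and 12.2 FPKM for the 6 periportal genes.

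Genes of other vascular beds were also found. *Plvap*, which forms the diaphragms that LSEC fenestrae lack, was at 222 and 269 FPKM, 2.66-fold and 3.59-fold the level of *Stab2*. *Esm1* and *Apln*, both known from sprouting tip cells, were at 209 and 193 FPKM and at 229 and 151 FPKM. In all, 12 of the 16 genes of capillary and large-vessel endothelium reached 1 FPKM. The venular gene *Ackr1* was at 65.2 and 97.4 FPKM, *Selp* (P-selectin) at 29.6 and 30.55 FPKM and *Aqp1*, a water channel, at 139.7 and 135.5 FPKM. *Vwf*, the large-vessel clotting factor, was low at 0.82 and 0.29 FPKM, the arterial connexin *Gja5* at 0.02 and 0.11 FPKM, and *Cd34*, a marker of continuous capillaries, at 9.86 and 7.74 FPKM.

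**Figure D2:**
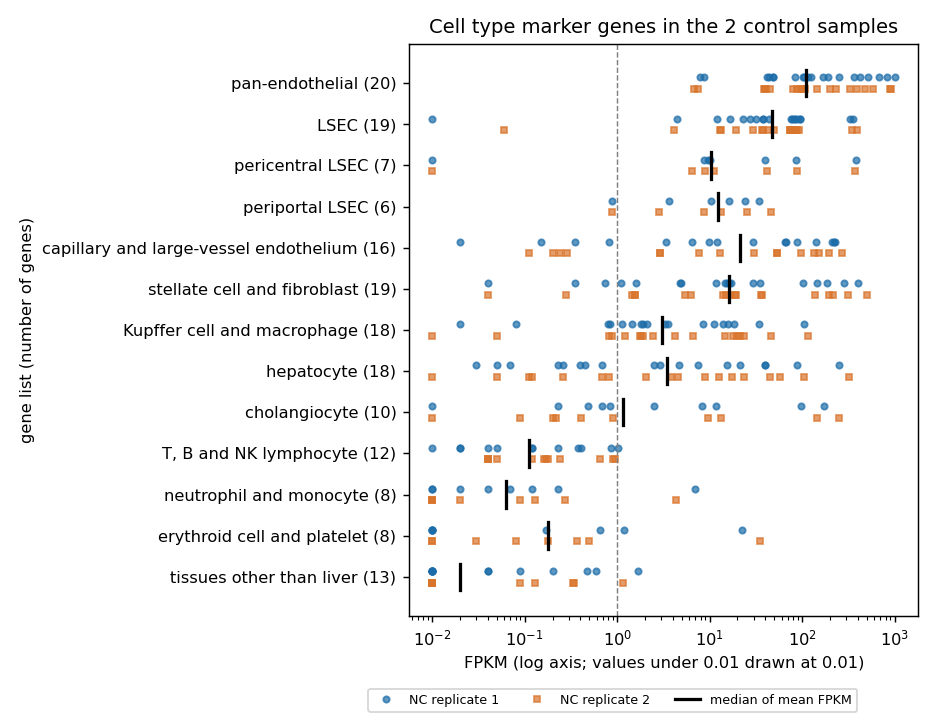
FPKM (log axis) of each matched gene in 13 cell type lists, with circles for NC replicate 1, squares for NC replicate 2, a bar for the median of the mean FPKM and a dashed line at 1 FPKM. The pan-endothelial (111 FPKM) and LSEC (46.8 FPKM) medians are the highest, and the lymphocyte, neutrophil, erythroid and other-tissue medians lie under 1 FPKM.

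Markers of other liver cells were measured beside those of endothelium. In bulk RNA, fewer cells of a type and less RNA per cell cannot be told apart. The stellate cell and fibroblast list had 17 of 19 genes at 1 FPKM or more and a median of 16.1 FPKM, and its summed level was 24.6% of the pan-endothelial sum in NC 1 and 31.8% in NC 2. Its highest members were *Tagln* at 398 and 506 FPKM, *Colec11* at 285 and 310.5 FPKM, *Acta2*, the smooth muscle actin of activated stellate cells, at 184 and 194 FPKM and *Dcn* (decorin) at 146 and 214 FPKM. Of the stretches of 50 bases (the read length, called words here) in the longest *Tagln* transcript, 48.3% are also found in transcripts of the opposite strand, so its level is uncertain if strand was not used. *Pdgfrb*, a receptor of stellate cells, was at 11.8 and 13.8 FPKM, *Col1a1* at 35.3 and 36.4 FPKM, and *Lrat*, the enzyme that stores vitamin A in quiescent stellate cells, at 0.74 and 1.45 FPKM. The list thus mixed members of high level with *Lrat*, a defining gene, close to 1 FPKM. Of its 19 genes, 12 reached 10 FPKM and 5 reached 100 FPKM, beside 36.9% and 5.12% of all genes.

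For Kupffer cells and macrophages, 15 of 18 genes reached 1 FPKM, with a median of 3.03 FPKM. *Lyz2* (lysozyme) was at 104 and 115 FPKM, but shares 15.4% of its words with other genes, and *Cd68* was at 34.1 and 46.5 FPKM. The complement genes *C1qa*, *C1qb* and *C1qc*, the signalling adaptor gene *Tyrobp* and *Cd5l*, a secreted macrophage protein, lay between 8.57 and 23.4 FPKM in both samples. The Kupffer cell genes *Clec4f* and *Vsig4* were at 2.10 and 1.81 FPKM and at 3.29 and 6.6 FPKM, and *Timd4* and *Cd163* did not exceed 0.08 FPKM. For hepatocytes, 11 of 18 genes (61.1%) reached 1 FPKM, close to the 63.0% of all genes. *Alb*, the serum albumin gene, was at 253 and 324 FPKM and *Mup3* (15.6% of its words shared) at 88.6 and 104 FPKM, while the hepatocyte transcription factor *Hnf4a* was at 0.23 and 0.26 FPKM and the urea cycle gene *Cps1* at 0.05 and 0.12 FPKM. Other genes of secreted liver proteins spread widely, from *Apoa2* at 39.5 and 57.4 FPKM to *Ttr* at 2.93 and 4.6 FPKM and the fibrinogen genes *Fga* and *Fgb* at or under 0.82 FPKM.

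The keratin genes *Krt18* and *Krt8* were at 171 and 251 FPKM and at 97.7 and 144 FPKM, and 26.9% of the words of *Krt8* are shared with other genes. They belong to the bile duct list, of which 5 of 10 genes (50%, beside 63.0% of all genes) reached 1 FPKM. Of its other genes, *Krt19* was at 11.6 and 13.4 FPKM and *Spp1* (osteopontin) at 8.32 and 9.64 FPKM, while *Epcam* and *Sox9* stayed at or under 0.68 FPKM. None of the 12 lymphocyte genes reached a mean of 1 FPKM, and of 8 erythroid and platelet genes only *Pf4*, a platelet chemokine, did so, at 22.3 and 35.3 FPKM. Among 8 neutrophil and monocyte genes only *Ly6c2*, at 6.88 and 4.37 FPKM, did so, and *S100a9* had 0 counts in both samples, which allows up to 0.173 CPM in NC 1 and 0.163 CPM in NC 2. Of 13 genes typical of heart, brain, eye, muscle and other tissues, only *Tnnt2* reached 1 FPKM, at 1.66 and 1.16 FPKM.

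Some marker lists differed in direction between the samples, which carry the same label. Among pan-endothelial genes 17 of 20 were higher in NC 1, with a median log2 ratio of NC 2 over NC 1 of -0.14. Among members at 1 FPKM or more, 16 of 17 stellate genes, 13 of 15 macrophage genes and 11 of 11 hepatocyte genes were higher in NC 2, with medians of 0.21, 0.35 and 0.54. Of the LSEC list, 7 genes were higher in NC 2 and 11 in NC 1, with a median of -0.021, and the pericentral LSEC genes split 3 and 3. Over all genes at 1 FPKM or more, 5652 were higher in NC 2 and 5893 in NC 1, and the median was -0.0038. *Cav1*, the caveolin of endothelial caveolae, was at 87.5 and 54.1 FPKM, one of the wider gaps among vascular genes. The part of cell composition in any gap between the samples was not tested.

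The largest relative gaps between the samples were mostly in genes of low level. Among named genes at 1 FPKM or more, *Hsf3*, *Hist1h2ao* and *Smg8* were listed at 0 in NC 2 and *Rtl8b* and *Gm6851* at 0 in NC 1. *Rtl8b* was the highest of these, at 0 and 16.7 FPKM. The keratin gene *Krt7* was 6.05-fold higher in NC 1 (2.48 and 0.41 FPKM), and the heat shock gene *Hspa1b*, which has a near copy in *Hspa1a*, was 3.55-fold higher (3.41 and 0.96 FPKM). In the other direction, *Wfdc17* was 3.69-fold higher in NC 2 (9.34 and 34.5 FPKM), *Il24* 3.64-fold and *Cyp2e1*, a hepatocyte cytochrome, 3.01-fold (0.68 and 2.05 FPKM).

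RNA was concentrated in a small part of the genes. The 10 highest genes held 5.88% and 6.10% of the summed FPKM, the 100 highest 27.3% and 28.2%, and the 1000 highest 62.6% and 63.6%. By counts, which are not corrected for length, the 100 highest held 17.4% as the mean of the samples. The 82 ribosomal protein genes made up 13.1% and 13.7% of the summed FPKM, and they took 42 of the 100 highest places and 13 of the 30 highest among named genes. *Ftl1*, the ferritin light chain that stores iron, was at 4766 and 5004 FPKM. *Eef1a1*, the elongation factor that brings aminoacyl-tRNA to the ribosome, was at 4706 and 4972 FPKM, and the order of these top 2 is within the gap between the samples. *B2m*, the shared light chain of MHC class I, was at 3695 and 3978 FPKM and shares none of its words with other genes.

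*Ifitm3*, an interferon-induced membrane protein that blocks virus entry, was at 3449 and 3876 FPKM, not apart from *B2m* beyond the gap between the samples, and *Actb*, cytoplasmic actin, was at 2952 and 3111 FPKM. Of genes that are not general housekeeping genes, *Sparc*, a secreted collagen-binding protein, was at 1877 and 1803 FPKM, *Ly6e*, an interferon-induced surface protein, at 1741 and 1642 FPKM, and *S100a11*, a calcium-binding protein, at 1689.7 and 2003 FPKM. *Fth1*, the ferritin heavy chain, was at 1807 and 2035 FPKM and *Tmsb4x*, the actin-binding thymosin beta-4, at 1735 and 1861 FPKM. Beside the ribosomal protein genes, the 30 highest thus held genes of several unrelated roles. Of the 29 among the 30 highest with a GENCODE transcript, 20 share at least 10% of their 50-base words with transcripts of other genes, 78.9% for *Ftl1* and 59.2% for *Eef1a1*, and their levels depend on how the authors' counting shared such reads. Each share was taken over the longest GENCODE transcript of a gene, which can extend beyond a copied part. A gene under 10% can thus still have a near copy, as does *Rpl35a* (7.19%), described below. Some genes named without such a share also reach 10%. On the same strand these are *Actb*, *Gja5*, *Hmgb1*, *Hspa1a*, *Hspa1b*, *Ifitm3*, *Ly6c2*, *Rpl21*, *Rpl27a*, *Rps12*, *Rps23*, *S100a11* and *Ybx1*. On the opposite strand they are *Angpt1*, *Eed*, *Hmgb1*, *Hspa1a*, *Hspa1b*, *Notch1*, *Rps12*, *Rps23*, *Rspo3*, *Selp* and *Tap2*.

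**Figure D3:**
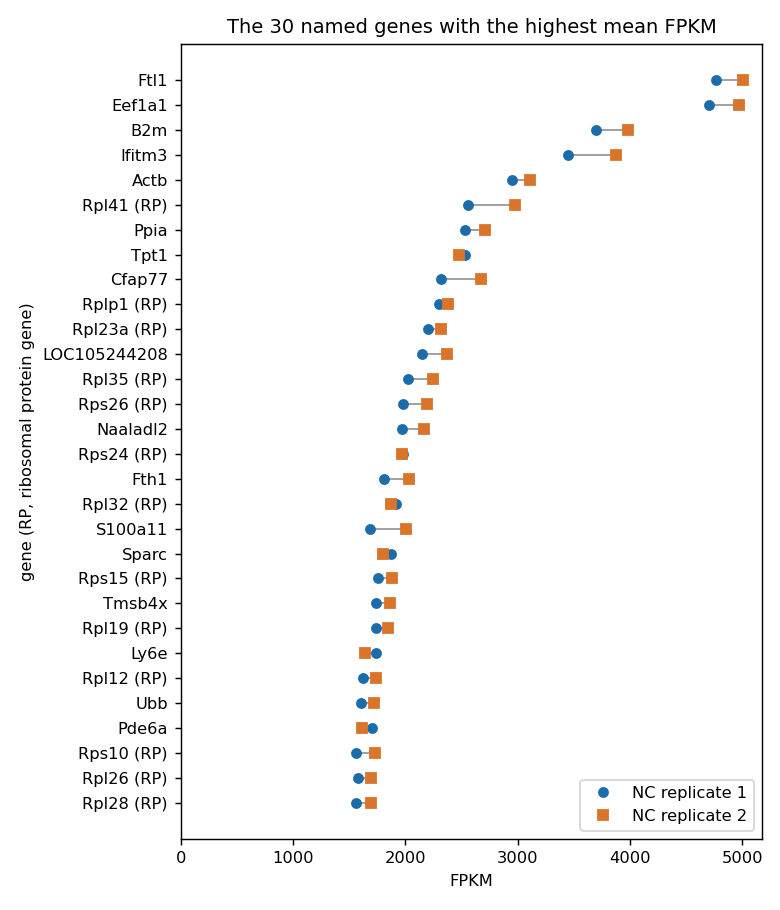
FPKM in NC replicate 1 (circles) and NC replicate 2 (squares) of the 30 named genes with the highest mean, with a grey line joining the 2 samples and RP marking ribosomal protein genes. *Ftl1* and *Eef1a1* stand apart at the top, and *Cfap77*, *Naaladl2* and *Pde6a* appear among them.

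Some of the highest genes are not known for abundant expression in endothelium. *Cfap77*, a protein of cilia, was among the 10 highest by mean at 2319 and 2675 FPKM, *Naaladl2* was at 1974 and 2164 FPKM, and *Pde6a*, the rod photoreceptor phosphodiesterase, was at 1706 and 1616 FPKM. At the same time *Gapdh*, the glycolytic enzyme often used as a reference gene, was at only 30.9 and 48.5 FPKM, below the glycolytic genes *Pkm* (669 and 677 FPKM) and *Aldoa* (636 and 669.9 FPKM), of which 34.4% and 13.5% of the words are shared. *Pkm* was 21.6-fold and 13.97-fold above *Gapdh*, of which 27.2% of the words are shared. The longest transcripts of *Cfap77*, *Naaladl2* and *Pde6a* share 0% of their words with other genes on the same strand. The locus of *Cfap77* on chromosome 2 of GRCm38 (GENCODE M21) holds the processed pseudogene *Gm13394*, at 28933610 to 28934609 on the same strand. A processed pseudogene is a copy of a spliced messenger RNA put back into the genome. *Gm13394* is identical to the *Gapdh* transcript at all but 1 of 1000 bases. The single difference is shown in capitals in 50 bases of coding sequence (coding positions 321 to 370 of *Gapdh*), and is A26C counted from the first base printed.

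*Gapdh*: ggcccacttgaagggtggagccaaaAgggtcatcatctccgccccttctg

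*Gm13394*: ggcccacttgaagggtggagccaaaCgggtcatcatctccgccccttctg

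Reads were 50 bases long, so within the 1000 bases of *Gm13394* only reads that cover this base differ between the copies. The locus of *Naaladl2* on chromosome 3 likewise holds *Gm7536* (24333068 to 24333511, on the opposite strand to *Naaladl2*), which is identical to the transcript of the ribosomal protein gene *Rpl27a* over all 444 bases. The same 50 bases, coding positions 61 to 110 of *Rpl27a*, are found in both, and no base is capitalised because none differs.

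*Rpl27a* and *Gm7536*: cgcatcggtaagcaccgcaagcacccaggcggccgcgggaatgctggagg

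*Rpl27a* itself was at 25.6 and 22.4 FPKM, beside a median of 881 FPKM for ribosomal protein genes. Such pairs were searched for among the 898 named genes at 100 FPKM or more that GENCODE lists, taking any pseudogene within the locus that matched a coding gene over at least 80% of its length at 98% identity or more. There were 14 genes of this kind, 5 of them among the 100 highest of the table. *Pdzd8* (1101 and 1122 FPKM) holds a full copy of *Rps12* (546 and 588 FPKM). *Wnk3* (829.6 and 898 FPKM) holds a copy of *Rpl21* that differs at 3 of 483 bases, and *Rpl21* was at 2.64 and 2.47 FPKM. *Wdr66* (682 and 714 FPKM) holds a copy of *Rpl35a* that differs at 1 of 333 bases, and *Rpl35a* was at 49.8 and 63.4 FPKM. In *Pde6a*, *Pdzd8*, *Wnk3*, *Wdr66* and *Gm5148* the copy lies on the opposite strand to the gene named for the locus. Whether strand was used in counting is not known.

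With the values taken as FPKM, the counts and FPKM of a gene together give an effective length for it. This length was 421 bases for *Naaladl2*, whose longest GENCODE transcript has 9330 bases, 872 for *Pde6a* (4588 bases), 464 for *Pdzd8* (5982 bases) and 461 for *Wnk3* (8551 bases). The copies within these loci have 444 bases (*Gm7536*), 965 bases (*Rps2-ps10*), 494 bases (*Rps12-ps3*) and 483 bases (*Rpl21-ps15*). For the lead case, *Cfap77*, the effective length was 1143 bases, beside 1000 for the copy and 1841 for its longest transcript. In others of the 14 it lay far from the copy, at 1716 bases in *Pitpna* (copy of 192 bases), 1967 in *Pnpla7* (483 bases), 1995 in *Hmgb1* (771 bases) and 1119 in *Tmcc1* (387 bases). Which copy the reads came from was not tested, and the levels of both genes of a pair are uncertain.

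**Figure D4:**
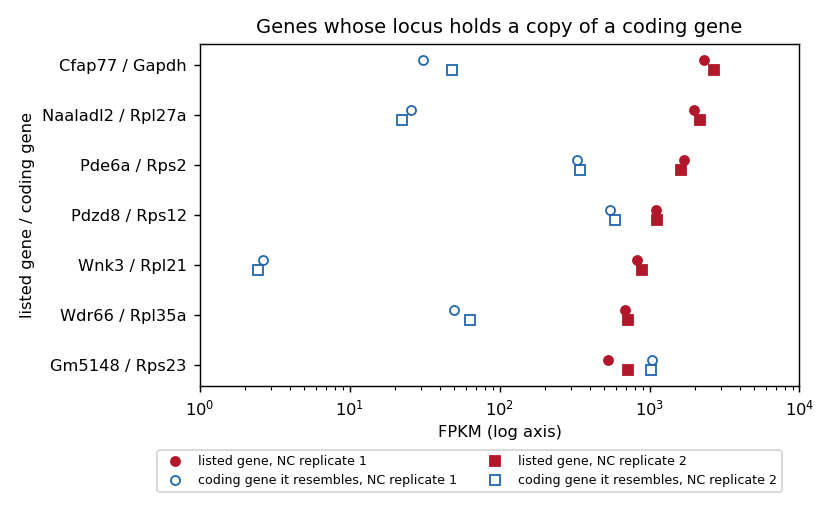
FPKM (log axis) in NC replicates 1 and 2 of 7 genes among the 200 highest whose locus holds a copy of a coding gene (filled red) and of that coding gene (open blue). In 6 of the 7 pairs the coding gene lies below the gene named for the locus, with *Rpl21* furthest apart at 2.64 and 2.47 FPKM, and in the pair of *Gm5148* and *Rps23* it lies above.

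Interferon-induced genes formed one of the high groups. All 20 of the list reached 1 FPKM, with a median of 78.3 FPKM. Beside *Ifitm3* and *Ly6e*, *Bst2* (tetherin) was at 1288 and 1342 FPKM, *Irf7*, the transcription factor of the type I interferon loop, at 605 and 589 FPKM and *Isg15*, a ubiquitin-like modifier, at 459 and 432 FPKM. The antiviral genes *Rsad2* (85.6 and 60.3 FPKM), *Ifit1* (56.2 and 48.0 FPKM) and *Ifit3* (181 and 145 FPKM, with 51.2% of its words shared) were lower, and *Mx1* was lowest at 3.16 and 2.79 FPKM. In NC 2, 14 of the 20 genes were lower than in NC 1, with a median log2 ratio of NC 2 over NC 1 of -0.087. Both samples had received an siRNA duplex, and no untreated sample was analysed here for comparison.

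A motif was searched near the starts of these genes, of which 14 of 20 had a sequence window. The motif GAAA followed, after any 2 bases, by GAAA again is the core of the element bound by interferon-activated factors, and the search covered both strands from 250 bases before to 50 bases after each start (RefSeq, GRCm38.p6). It was found for 10 of the 14 interferon genes with such a window (71.4%), beside 1079 of 27025 genes with a window (3.99%). The list was made of genes already known as interferon-induced, so a high share could be foreseen and says nothing of these samples. The motif was found for 344 of 8990 genes at 1 FPKM or more (3.83%) and 166 of 4644 genes under 1 FPKM (3.57%). It was found for 3 of 15 antigen presentation genes with a window (20.0%), 1 of 12 LSEC genes (8.33%) and none of 12 pan-endothelial genes. Windows of 60 bases, all before the start, of 3 members with more than 1 match are printed 5′ to 3′ on the strand of the gene, with every match of the motif (or its reverse complement) in capitals. A match describes the letters and not binding.

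*Isg15*, chr4:156200862-156200921, minus strand: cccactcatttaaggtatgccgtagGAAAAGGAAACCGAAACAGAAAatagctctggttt

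*Bst2*, chr8:71537562-71537621, minus strand: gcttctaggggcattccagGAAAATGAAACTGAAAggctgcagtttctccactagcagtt

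*Ifit1*, chr19:34640779-34640838, plus strand: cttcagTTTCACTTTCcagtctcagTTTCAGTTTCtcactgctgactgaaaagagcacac

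The window of *Isg15* held 3 matches, which began 78, 72 and 66 bases before the start and overlap. That of *Bst2* held 2, at 130 and 124 bases, which overlap, and that of *Ifit1* held 2, at 104 and 85 bases, which do not.

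Of 21 antigen presentation genes, 16 reached 1 FPKM. The MHC class I heavy chain genes *H2-K1* (1136 and 1272 FPKM) and *H2-D1* (526 and 567 FPKM) were high, although *H2-D1* shares 14.3% of its words with related genes. The class II genes *H2-Aa* (5.22 and 1.78 FPKM), *H2-Ab1* (2.84 and 1.62 FPKM) and *Cd74*, the invariant chain (10.5 and 5.38 FPKM), were lower than these and higher in NC 1 than in NC 2. The class I genes *H2-Q7* (15.8 and 15.3 FPKM) and *H2-Q4* (1.30 and 1.60 FPKM) were also low, and both share over 20% of their words. The peptide transporter gene *Tap2* was at 3.17 and 3.49 FPKM and the immunoproteasome gene *Psmb8* at 2.38 and 2.23 FPKM. Other members of the list were higher. *Psme1* was at 216 and 197 FPKM, *Tapbp* at 127 and 124 FPKM, *H2-T23* at 110.2 and 110.5 FPKM and *Tap1* at 20.3 and 18.5 FPKM. Of their words, 20.0% in *Tapbp* are shared with the opposite strand and 15.0% in *H2-T23* with other genes. The co-stimulatory genes *Cd80* and *Cd86* stayed under 0.45 FPKM. Among pattern receptors, *Tlr3* and *Tlr4* were at 16.8 and 14.3 FPKM and at 7.57 and 6.54 FPKM, while *Tlr9* was at 0.09 and 0.06 FPKM.

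Chemokine genes were led by *Ccl2*, a chemokine that recruits monocytes, at 1065 and 1124 FPKM. *Cxcl12* was at 275 and 312 FPKM, *Cxcl1* at 152 and 219 FPKM and *Ccl7* at 122 and 193 FPKM. The cytokine gene *Mif* was second in this list at 608 and 688 FPKM, but shares 37.6% of its words. Lower were *Il6* at 6.78 and 10.4 FPKM, *Tnf* at 3.76 and 3.41 FPKM and *Il1b* at 0.75 and 1.82 FPKM. Of the 19 genes of this list at 1 FPKM or more, 13 were higher in NC 2.

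Transcripts of scavenger receptors, of the endocytic machinery and of lysosomes were found, and uptake itself was not measured here. Of 20 scavenger and endocytic receptor genes, 16 reached 1 FPKM, with *Scarb1* (the HDL receptor) at 64.7 and 67.3 FPKM and *Cd36* (the fatty acid and thrombospondin receptor) at 52.1 and 46.5 FPKM, below *Fcgr2b*, *Lyve1*, *Stab1* and *Stab2*. All 17 genes of the endocytic machinery were at 10 FPKM or more, among them *Clta* (clathrin light chain) at 280.4 and 288 FPKM and *Dab2*, a clathrin adaptor, at 83.8 and 77.9 FPKM. All 22 lysosomal genes were at 10 FPKM or more and 16 at 100 FPKM or more, beside 36.9% and 5.12% of all genes, with a median of 191 FPKM. The cathepsin genes *Ctsb* (1322 and 1451 FPKM), *Ctsl* (1015 and 1023 FPKM) and *Ctsd* (683 and 721 FPKM) led them. Of their words, 36.6% in *Ctsd* are shared with other genes, and 28.0% in *Ctsl* and 15.4% in *Ctsb* with transcripts of the opposite strand. *Ctsd* was 8.27-fold and 8.88-fold above the receptor gene *Stab1*.

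In the list of nitric oxide and vascular tone genes, 20 of 21 reached 1 FPKM, with a median of 13.9 FPKM. The dimethylarginine hydrolase genes *Ddah2* and *Ddah1*, which remove inhibitors of nitric oxide synthase, were at 86.7 and 85.8 FPKM and at 54.99 and 54.97 FPKM, and *Nosip* was at 52.4 and 49.4 FPKM. *Nos3* was at 8.77 and 7.54 FPKM, and shares 20.3% of its words with transcripts of the opposite strand. *Klf2*, the shear-induced transcription factor that raises *Nos3*, was at 8.52 and 7.62 FPKM, and its relative *Klf4* at 5.41 and 4.39 FPKM. The sGC subunit genes *Gucy1a1* and *Gucy1b1* were at 14.02 and 17.9 FPKM and at 20.7 and 22.9 FPKM. *Nos3* and *Klf2* did not differ beyond the gap between the samples, and both lay below the sGC genes. The constrictor gene *Edn1* (endothelin-1) was at 425 and 404 FPKM, 48.5-fold and 53.6-fold above *Nos3*, and *Adm*, the dilator adrenomedullin, at 288 and 318 FPKM. The endothelin receptor genes *Ednrb* and *Ednra* were at 11.9 and 12.9 FPKM and at 2.51 and 2.72 FPKM.

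Among secreted growth factors, the YAP target *Ctgf* was highest at 1059 and 1210.1 FPKM, followed by *Cyr61*, its relative, at 563 and 649.6 FPKM. *Angpt2*, the destabilizing ligand of Tie2, was at 352 and 334 FPKM, whereas its counterpart *Angpt1* was at 0.03 FPKM in both samples. *Pdgfb*, which recruits pericytes and stellate cells, was at 149.9 and 137 FPKM and *Tgfb1* at 110.4 and 110.7 FPKM. *Hgf* and *Wnt2*, known as signals from LSEC to hepatocytes, were at 13.3 and 16.5 FPKM and at 9.51 and 11.1 FPKM. Of the 30 genes of this list, 27 reached 1 FPKM with a median of 18.0 FPKM. *Bmp2*, given above, and *Bmp6*, which also acts on hepatocytes, at 77.01 and 69.2 FPKM, stood above *Vegfa* at 19.1 and 18.3 FPKM.

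Receptors for some of these ligands were found as well. *Kdr*, the main VEGF receptor, was at 102 and 88.2 FPKM, and the Tie receptors *Tie1* and *Tek* were at 106 and 97.1 FPKM and at 48.9 and 41.1 FPKM. *Nrp2* was at 128 and 123 FPKM, above *Nrp1* at 40.4 and 33.6 FPKM. In the BMP and TGF-beta list all 20 genes reached 1 FPKM, led by *Eng*, with the type II receptor genes *Tgfbr2* at 49.2 and 44.95 FPKM and *Bmpr2* at 19.04 and 18.6 FPKM. Of the Notch receptors, *Notch1* and *Notch4* were at 23 and 21.2 FPKM and at 19.1 and 18.0 FPKM, while *Notch3* stayed at or under 0.14 FPKM, and the target genes *Hey1* and *Hey2* at or under 1.41 FPKM. The target genes *Nrarp* and *Hes1* were at 40.9 and 40.5 FPKM and at 19.9 and 20.4 FPKM, and 77.3% of the words of *Nrarp* are shared with transcripts of the opposite strand.

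Normal sinusoids lack a continuous basement membrane, and the genes of its parts ranged widely here. After *Sparc*, the type IV collagen genes *Col4a1* and *Col4a2* were at 582 and 564 FPKM and at 306 and 295 FPKM. *Nid1* (nidogen) was at 111 and 109 FPKM. The laminin chain genes were lower: *Lamc1* at 33.2 and 29.7 FPKM, *Lamb1* at 16.6 and 18.8 FPKM and *Lama4* at 18.2 and 16.5 FPKM, with *Lama1*, *Lama2* and *Lama3* at or under 0.24 FPKM. In all, 22 of 28 matrix genes reached 1 FPKM. The plasminogen activator genes *Plau* and *Plat* were at 73.0 and 62.0 FPKM and at 2.23 and 1.30 FPKM.

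Of the coagulation genes, *Procr* (the protein C receptor) was at 207 and 184 FPKM and *F8*, clotting factor VIII, of which LSEC are a main source, at 22.8 and 19.04 FPKM. *Vwf*, the carrier of factor VIII, was under 1 FPKM as given above. Of the junction genes, which include some of the pan-endothelial list, 24 of 25 reached 1 FPKM and 8 reached 100 FPKM, with *Cldn5* at 167 and 146 FPKM and *Ocln* lowest at 0.58 and 0.63 FPKM. The lipid genes *Fabp4* (given above), *Plin2* (283 and 348 FPKM) and *Gpihbp1*, which holds lipoprotein lipase on endothelium (251 and 252 FPKM), were high, whereas *Meox2* and *Tcf15*, transcription factors of muscle and heart capillaries, were at or under 0.26 FPKM.

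Of 36 endothelial transcription factor genes, 31 reached 1 FPKM and none reached 100 FPKM on average, with a median of 33.4 FPKM. *Sox18* was at 98.1 and 102 FPKM, *Lmo2* at 78.6 and 70.7 FPKM, *Ets1* at 66.7 and 67.6 FPKM, *Nr2f2*, the venous factor COUP-TFII, at 47.7 and 42.5 FPKM, and *Erg* at 43.7 and 39.6 FPKM. *Prox1*, the lymphatic factor, was at 0.50 and 0.39 FPKM and *Etv2*, a factor of embryonic endothelium, at 0.50 and 0.65 FPKM. In a list of 28 other transcription factor genes, all reached 1 FPKM and 3 reached 100 FPKM on average, with a median of 46.8 FPKM. These 3 were *Ybx1* at 507 and 501.5 FPKM, *Atf4* at 393 and 382 FPKM and *Junb* at 103 and 116 FPKM, and *Myc* was at 94.75 and 81.55 FPKM.

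**Figure D5:**
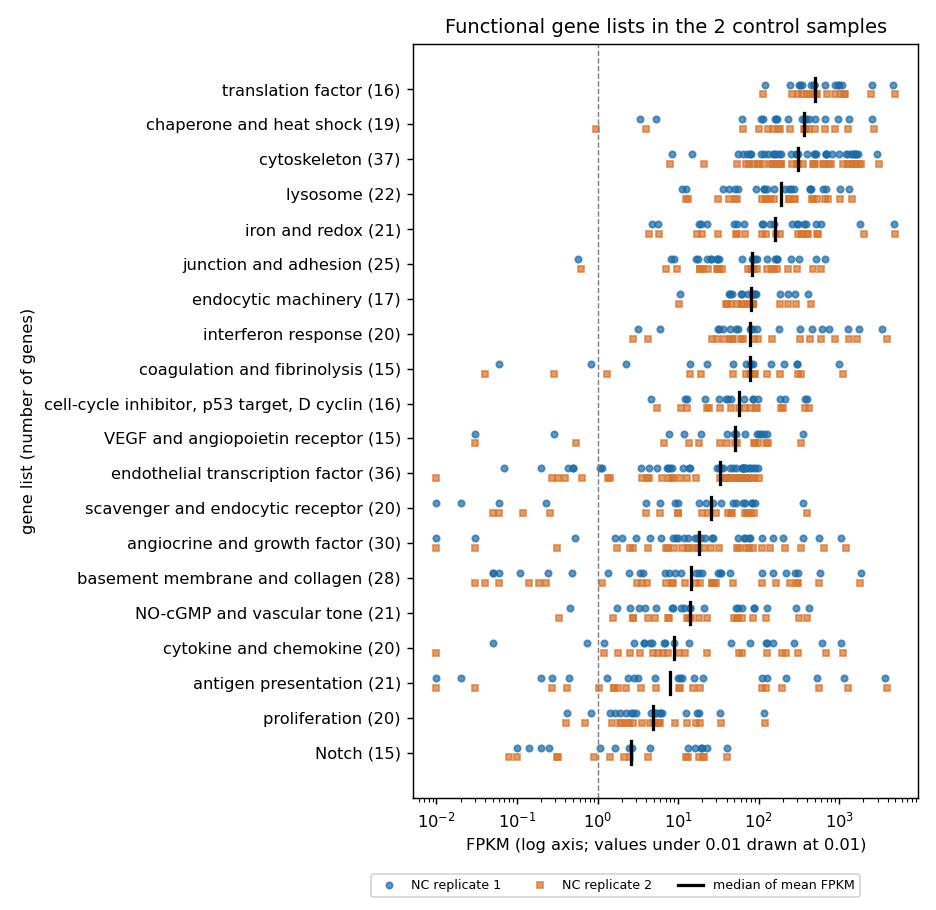
FPKM (log axis) of each matched gene in 20 functional lists, with circles for NC replicate 1, squares for NC replicate 2, a bar for the median of the mean FPKM and a dashed line at 1 FPKM. Medians run from 501 FPKM for translation factors to 2.60 FPKM for Notch genes.

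Of 20 division genes, 18 reached 1 FPKM (90%, beside 63.0% of all genes) and 5 of the 20 reached 10 FPKM (beside 36.9% of all genes). *Mki67*, a marker of cycling cells, was at 0.82 and 0.70 FPKM, or 5.97 CPM over both samples (95% exact Poisson interval 5.19 to 6.83), and the mitotic genes *Top2a*, *Cdk1* and *Aurkb* did not exceed 3.58 FPKM. *Pcna*, the DNA clamp that also acts in repair, was at 115 and 121 FPKM but shares 31.8% of its words with other genes, and *Mcm3*, a replication licensing gene, was at 32.8 and 34.5 FPKM. All 16 genes of a list of cell-cycle inhibitors, p53 targets and D-type cyclins reached 1 FPKM, with *Cdkn1a* (p21; 10.5% of its words shared with the opposite strand) at 378 and 373 FPKM, *Bax* (13.8% shared) at 401 and 423 FPKM and *Mdm2* at 84.4 and 78.6 FPKM. The D-type cyclin genes *Ccnd1*, *Ccnd2* and *Ccnd3*, which drive entry into the cycle, were at 32.5 and 24.0 FPKM, at 45.05 and 44.8 FPKM and at 66.25 and 67.0 FPKM, with 27.2% of the words of *Ccnd1* shared with the opposite strand. The median of the division list was 4.84 FPKM.

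Among redox and iron genes, *Hmox1*, which degrades heme, was at 594 and 529 FPKM and the metallothionein genes *Mt1* and *Mt2* were at 301 and 341 FPKM and at 139 and 187 FPKM, with 45.5% of the words of *Mt2* shared with the opposite strand. *Tfrc*, the transferrin receptor, was at 18.5 and 20.0 FPKM and *Slc40a1*, the iron exporter ferroportin, at 19.5 and 16.97 FPKM, both far below the ferritin genes. A cytoskeleton list of actins, actin-binding, tubulin, vimentin, galectin, annexin and lamin genes had 30 of 37 at 100 FPKM or more, and the translation factor list all 16 matched, beside 5.12% of all genes.

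*Airn* itself, the target of the study, was at 0.07 and 0.03 FPKM. Its 7 and 3 counts correspond to 0.280 CPM over both samples (95% exact Poisson interval 0.134 to 0.515), so its level rested on 10 counts. *Airn* starts within the imprinted gene *Igf2r* and runs on the opposite strand, and the longest GENCODE transcripts of the pair share none of their 50-base words with other genes on either strand. *Igf2r*, which encodes the mannose 6-phosphate receptor, was at 4.01 and 4 FPKM. *Ezh2*, the methyltransferase of the polycomb repressive complex, was at 11.4 and 11.5 FPKM, its partners *Eed* and *Suz12* at 23.7 and 25.5 FPKM and at 12.8 and 11.6 FPKM, and its paralog *Ezh1* at 15.3 and 14.7 FPKM. The 4 Y-linked genes *Eif2s3y*, *Ddx3y*, *Kdm5d* and *Uty* were all above 2.9 FPKM in both samples, with *Ddx3y* at 11.35 and 11.32 FPKM, so transcripts of the Y chromosome were found in both. The sex of the mice is not given in the sources used here.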

How the data were processed

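RNA-seq of primary LSEC was analysed in the 2 samples labelled NC, and samples were grouped by these labels. No comparison with the other group was made. The authors deposited 1 table with estimated counts and expression values per gene. Its header gives no unit for the expression values. These deposited values were taken to be FPKM, since RSEM gives that unit and the columns do not share 1 sum as TPM would (541132 in NC 1 and 560412 in NC 2). Gene lengths were not used here to check this. The submitters' processing notes name BWA, Bowtie2 and RSEM with no version, and the build hg19, although the gene identifiers are mouse. The use of strand is not given in the sources used here. Reads were single-end and 50 bases long.

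All 18373 genes were kept, including 927 without a gene name (3.59% and 3.69% of summed FPKM). Means, ranks, log2 ratios and exact Poisson intervals were computed in Python 3.11.15 with pandas 2.3.3 and scipy 1.17.1, and were tested on simulated data. No test between groups was run. A set of 41 lists with 681 matched symbols was written from general knowledge of marker genes. The samples described and the lists were chosen with earlier results of these data known. Genes were named as the 30 highest, the defining, highest and lowest members of each list, the 10 largest gaps between samples in each direction and *Pecam1*, *Cdh5*, *Stab2*, *Lyve1*, *Airn*, *Klf2*, *Nos3*, *Ezh2* and *Kdr*, and not all of these are given. The genes whose locus holds a copy were named after their values were seen. Copies were found with BLAST 2.17.0 in GENCODE M21, which may differ from the annotation used for counting. Intervals cover counting error only.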

Additional observations from a re-analysis of the deposited data

How the results depend on the processing

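No paired analysis was possible because no groups were compared. The number of genes at 1 FPKM or more was 11385 when both samples had to reach it and 11552 and 11588 in single samples. It was 12361 at 1 TPM, 12750 at 1 CPM, 12493 at 0.5 FPKM and 8732 at 5 FPKM. Taken from counts, the share of the 10, 100 and 1000 highest genes was 4.10%, 17.4% and 49.7%. Taken from FPKM without ribosomal protein genes, it was 6.75%, 24.99% and 58.8%. Ranked by mean FPKM, the median percentile was 95.4 for pan-endothelial, 88.2 for LSEC, 46.3 for macrophage, 71.4 for stellate and 48.0 for hepatocyte genes. Ranked by CPM it was 96.8, 92.8, 43.5, 80.1 and 39.0. Ranked among genes at 1 FPKM or more it was 92.7, 85.2, 24.4, 57.0 and 55.1. By counts, the sums of the LSEC, macrophage, stellate and hepatocyte lists were 37.1%, 2.35%, 18.9% and 6.38% of the pan-endothelial sum. By FPKM, the LSEC sum was 30.8% of it and the stellate sum 28.2%. The macrophage sum was 5.07% of the pan-endothelial sum and the hepatocyte sum 10.9%. These 2 were 3.55% and 6.32% when each list was taken without its highest member. The cause of these shifts was not tested. Without either sample the hepatocyte percentile ranged from 45.5 to 50.3. Ranking by CPM moved the median of the antigen presentation list from 59.2 to 47.2, of the proliferation list from 52.1 to 46.5 and of the Notch list from 45.02 to 59.8. The sources used here do not say whether the 2 samples are separate animals, so the spread between animals is unknown, and *Airn* and *Cd209b* rest on 10 and 2 counts.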
